A study of Mus musculus with 14 samples.

Results

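The matched pairs of P0 cochlear explants given compound E, an inhibitor of γ-secretase, or its solvent DMSO are described here across all genes, with the accent on transcription factors, secreted proteins, surface proteins and the agreement between pairs. The members are the 4 CompE and 4 DMSO libraries of P0, which are 8 of the 14 libraries of the series, and the replicate number joins each CompE library to 1 DMSO library. RNA was sequenced from supporting cells (SCs) that were sorted for EGFP from newborn mice carrying an Lfng-EGFP transgene, after explants had spent 24 hours in 2 µM compound E or in DMSO. Both treatments share the transgene, the culture and the sort, and the paper gives the age as P0-P1 and the source of each tube as pooled cochleae. The reporter is driven by regulatory sequence of Lfng, itself a Notch target, so the gate and the treatment act on 1 pathway. The 6 other libraries are the same treatments at P6, 3 of each, and enter only the last comparison. Of the 35976 gene symbols counted, 15937 passed a filter on low counts and were tested.

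Notch receptors are cleaved by γ-secretase after they bind a ligand on a neighbouring cell, and the fragment released enters the nucleus and activates genes such as the Hes and Hey repressors together with the DNA-binding protein RBPJ. In the cochlea, hair cells (HCs) carry the ligands, and Notch activity in the SCs around them, among them the Deiters', pillar and inner phalangeal cells, represses Atoh1 and with it the HC programme. SCs also have features of glia and of secretory epithelia, with transporters, channels and receptors for extracellular nucleotides.

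The 8 libraries held 19415066 to 44430063 counts on genes. Values are given as RPM, reads of a gene scaled to a library total of 1000000, and 4 values in a row are replicates 1 to 4. Defining SC markers were present in every library, with a summed level of 14 markers of 6525 to 7656 RPM with compound E and 7150 to 12810 RPM with DMSO, lower in 4 of 4 pairs, and 4 of the 14 were called lower (Fabp7, Lfng, Jag1 and Hey2). The 15 HC markers summed to 1411 to 2649 RPM with compound E and 727 to 1777 RPM with DMSO, higher in 4 of 4 pairs, with 2 called higher (Insm1 and Pou4f3). The 10 mesenchymal markers were also higher in 4 of 4 pairs, at 1275 to 1465 RPM against 1004 to 1250 RPM, with 0 called by edgeR or DESeq2 and 3 at an unadjusted p under 0.05, while the median log2 fold change of the 10 was -0.29. Markers of macrophages, endothelium, melanocytes and red cells stayed at or below 16.2 RPM in sum in every library, and Tyr was at 0 in all 8. The 6 markers of Schwann cells and satellite glia summed to 151 to 452 RPM with compound E and 119.9 to 248 RPM with DMSO, higher in 3 of 4 pairs, and the 8 neuronal markers to 356 to 452 RPM and 319 to 383 RPM, also higher in 3 of 4. Compound E replicate 1 was highest in both sums, with Egr2 at 385 RPM and Isl1 at 333 RPM, and no marker of these lists was called by edgeR or DESeq2, with 1 of each list at an unadjusted p under 0.05. The part of other cell types in the results was not tested. The female transcript Xist was 36.7, 12.2, 10.7 and 15.1 RPM with compound E and 16.9, 4.26, 5.05 and 7.95 RPM with DMSO and was called (log2 fold change 1.12, SE 0.15, edgeR adjusted p = 0.00319), while the 4 Y-linked genes Ddx3y, Eif2s3y, Kdm5d and Uty had edgeR adjusted p of 0.658 to 0.943. Xist was not called in a fit without the pairing (edgeR adjusted p = 0.335) or without replicate 1, 3 or 4 (0.0182, 0.0214 and 0.0141). Sex is not among the labels, and its part in the results was not tested. The libraries of replicate 1 stood apart from the others on the first 2 principal components. In bulk libraries, fewer cells of a type and less RNA per cell cannot be told apart.

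The comparison asked which genes depend on γ-secretase activity in P0 SCs. A gene was called when its edgeR quasi-likelihood adjusted p, with the replicate number as a block, was at most 0.01 and its change at least 2-fold. With this rule 350 genes were called, or 2.2% of those tested, 109 of them higher with compound E (0.684%) and 241 lower (1.51%). All 7 Notch target genes followed (Hes1, Hes5, Hey1, Hey2, Heyl, Lfng and Nrarp) fell, with log2 fold changes from -6.01 for Hes5 to -1.16 for Hey2, and Atoh1 and Hes6 rose by 1.94 and 2.09. Hes5, Lfng and Atoh1 were not called without the block (edgeR adjusted p of 0.0187, 0.0241 and 0.0563), and Hes6 just missed the limit there. Hes5 was also not called without replicate 3 or 4, and Lfng not without replicate 2, 3 or 4. Called genes were a larger share of secreted proteins (35 of 484, 7.23%) and of surface proteins (76 of 1254, 6.06%) than of transcription factors (21 of 863, 2.43%) or of the other 13336 genes (73 higher and 145 lower, 1.63%). In the secreted class 10 genes rose and 25 fell, and in the surface class 18 rose and 58 fell. These shares are descriptions, since classes were made from gene symbols and membership goes with expression level.

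**Figure D1:**
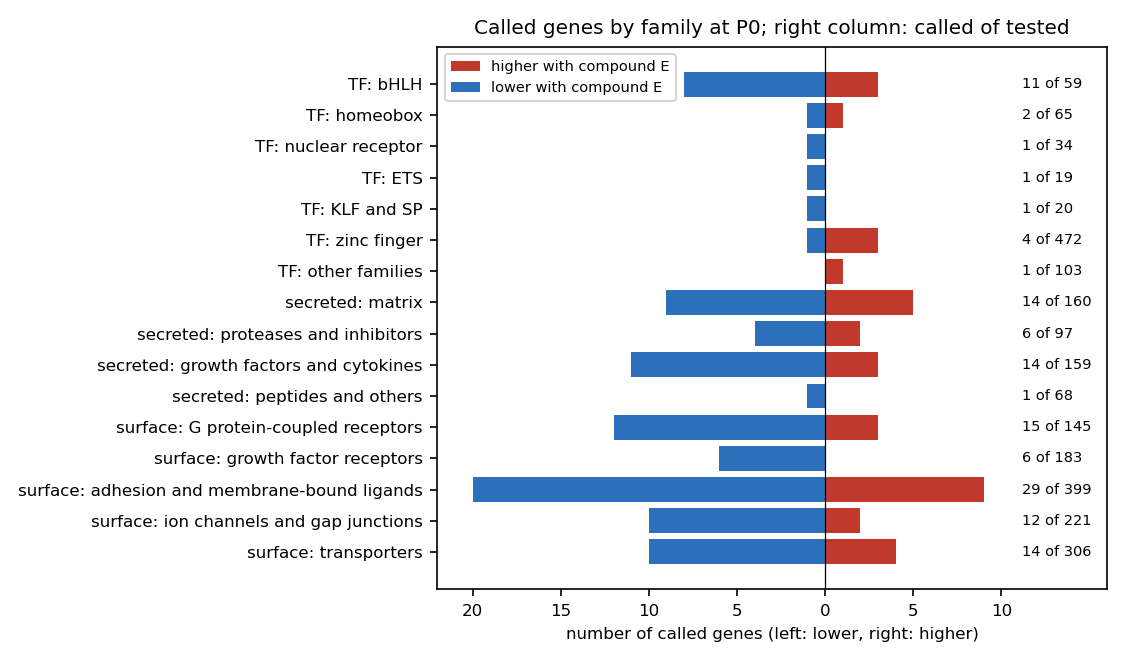
Number of called genes in each family with at least 1 call, P0 libraries, with genes higher with compound E as bars to the right and genes lower as bars to the left; the column at the right gives called of tested genes. Adhesion proteins and membrane-bound ligands held 29 calls, matrix proteins 14 and G protein-coupled receptors 15, and most bars to the left are longer than those to the right.

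Among transcription factors, 8 rose and 13 fell. The bHLH family held 11 of these 21 calls, 3 higher and 8 lower of 59 tested, and the zinc finger family held 4 of 472. Apart from the Notch targets Hes1, Hes5, Hey1, Hey2 and Heyl and from Atoh1 and Hes6, the bHLH calls were Atoh8, Tal1, Mlxipl and Id3. Genes of the HMG box, forkhead, bZIP and T-box families, 91 tested in all, held 0 calls by edgeR at this rule, with 26 at an unadjusted p under 0.05, 1 higher and 7 lower at an adjusted p of at most 0.05 with no fold threshold (7.5% of all genes, 2.96% higher and 4.54% lower), and 2 called by DESeq2 (Foxq1 and Tbx3). Beyond the Hes, Hey and Atoh1 genes, the largest fall was in Tal1, a bHLH factor of blood, endothelial and some neural lineages. Tal1 had 0.0450, 6.59, 0.0875 and 0.473 RPM in compound E replicates 1 to 4 and 9.38, 61.8, 11.3 and 24.6 RPM in DMSO replicates 1 to 4. All 4 DMSO libraries lay above all 4 compound E libraries, the gap being narrowest for replicate 2, which was highest in both treatments (log2 fold change -5.05, SE 0.58, edgeR adjusted p = 0.00164). Prdm12, a PR-domain factor known from pain-sensing neurons, had 2.84, 5.92, 4.81 and 5.37 RPM with compound E and 21.6, 56.4, 49.9 and 39.4 RPM with DMSO, an 8.86-fold lower level (log2 fold change -3.15, SE 0.14, edgeR adjusted p = 5.34e-05). Hopx, a homeodomain protein that lacks DNA binding, went from between 30.3 and 37.1 RPM with DMSO to between 3.35 and 5.80 RPM (log2 fold change -2.92, SE 0.18, edgeR adjusted p = 0.000112). Prdm12, Hopx, Rarb and Mlxipl share exons with genes on the other strand, and whether counting used the strand is not given in the sources used here. Among called genes named elsewhere, the same holds for Adam19, Dclk1, Dlk2, Dll1, Egf, Fbn1, Fgf20, Gpc1, Grm7, Has2, Hes5, Ly6g6c, Nos1, Notch3, Nrarp, P2rx3, Padi2, Prss23, Rab3b, Ramp3, Srrm4, Tnfaip2 and Xist, while Pcsk6 and Xist also share exons with genes on their own strand, so the reads of these genes cannot be assigned with certainty. Smaller falls were found in Mlxipl, the glucose-responsive factor ChREBP (log2 fold change -1.66, SE 0.16, edgeR adjusted p = 0.000831), in the retinoic acid receptor Rarb (log2 fold change -1.23, SE 0.20, edgeR adjusted p = 0.00786), and in the Wnt target Sp5 (log2 fold change -1.19, SE 0.15, edgeR adjusted p = 0.00254). Rarb was not called without any 1 of the replicates (log2 fold change -0.98 without replicate 1, edgeR adjusted p of 0.0164, 0.0438 and 0.0232 without replicates 2, 3 and 4) or without the block (edgeR adjusted p = 0.0384). Tal1 was not called without replicate 3 or 4 (edgeR adjusted p of 0.0102 and 0.0113) or without the block (0.140), and Mlxipl was not called without replicate 3 (0.0110).

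The transcription factors that rose had less in common by family. Atoh8, a bHLH factor of the family of Atoh1, had 6.35, 3.55, 5.07 and 5.11 RPM with compound E and 0.870, 0.275, 0.699 and 0.855 RPM with DMSO, so that it was near the floor with DMSO and 7.56-fold higher with compound E (log2 fold change 2.92, SE 0.28, edgeR adjusted p = 0.000702). Zfp503, a zinc finger repressor, rose from between 4.41 and 9.53 RPM to between 20.4 and 40.7 RPM (log2 fold change 1.98, SE 0.13, edgeR adjusted p = 0.000122). The groups of both genes were separate. Insm1, a zinc finger factor of newborn HCs and neuroendocrine cells, had 70.6, 13.9, 42.8 and 56.7 RPM with compound E and 14.2, 1.63, 5.24 and 7.33 RPM with DMSO (log2 fold change 2.79, SE 0.16, edgeR adjusted p = 7.82e-05). Its compound E replicate 2 lay just below DMSO replicate 1, so the treatments overlapped although all 4 pairs rose by log2 ratios of 2.28 to 3.02. Eya2, a coactivator and phosphatase of the eyes absent family, rose by 2.17 (SE 0.20, edgeR adjusted p = 0.000604), and Gata2 by 1.32 (SE 0.13, edgeR adjusted p = 0.000904). Pou4f3, required for HC survival, was called at 1.13 with overlapping groups. Insm1, Eya2 and Pou4f3 were not called without the block (edgeR adjusted p of 0.0361, 0.0342 and 0.482). Pou4f3 was also not called whichever replicate was left out.

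**Figure D2:**
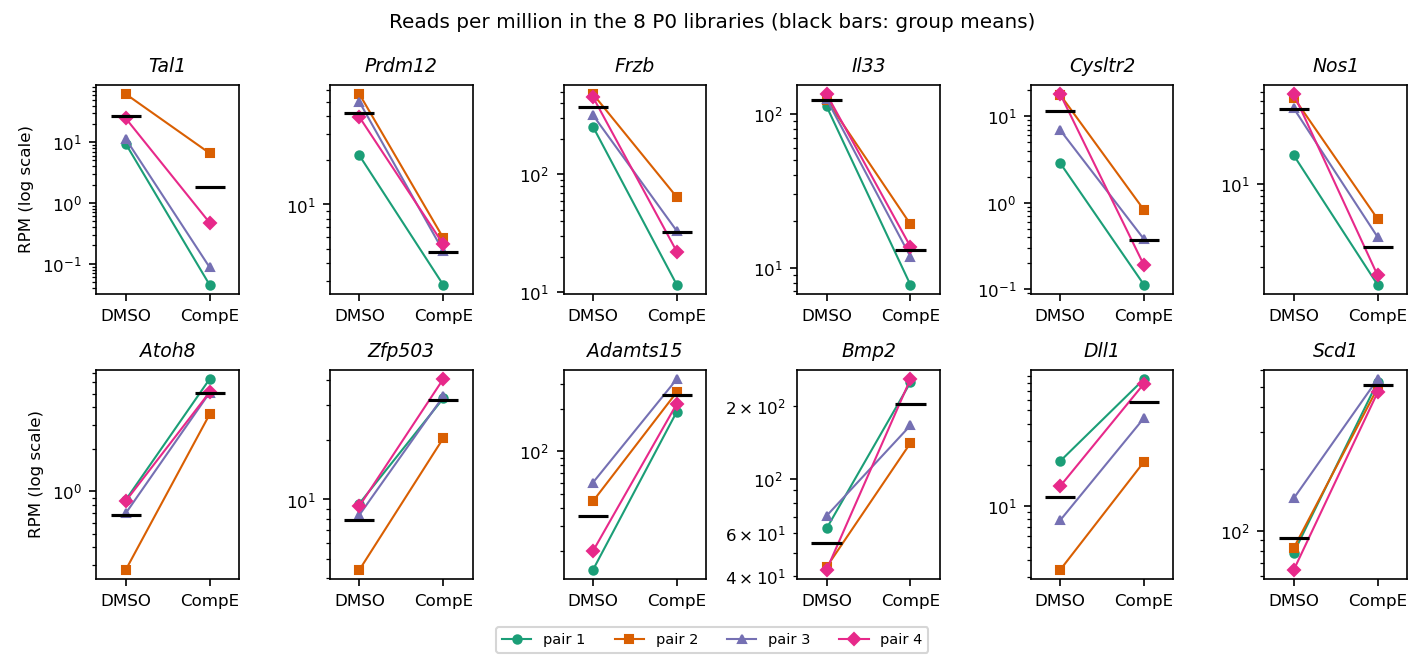
RPM of 12 named genes (log axis) in the 8 P0 libraries, with a line for each matched pair and a black bar for each group mean. Tal1, Prdm12, Frzb, Il33, Cysltr2 and Nos1 fell in all 4 pairs, and Atoh8, Zfp503, Adamts15, Bmp2, Dll1 and Scd1 rose in all 4, with the Dll1 groups overlapping and replicate 2 lowest in both.

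Secreted growth factors, cytokines and their inhibitors held 14 calls among 159 tested, 3 higher and 11 lower. The largest fall was that of Frzb, the secreted Frizzled-related Wnt antagonist, on chr2:80411970-80447625 of GRCm38. Frzb had 11.6, 64.1, 33.1 and 22.1 RPM with compound E and 254, 479.8, 318 and 453 RPM with DMSO. The compound E libraries all lay far below the lowest DMSO library, replicate 2 being the nearest, and the level was 13.7-fold lower (log2 fold change -3.78, SE 0.28, edgeR adjusted p = 0.000209). Il33, an alarmin cytokine that is kept in the nucleus until it is released, fell from between 112 and 135 RPM to between 7.72 and 19.2 RPM (log2 fold change -3.36, SE 0.18, edgeR adjusted p = 7.82e-05). The chemokine Cxcl12 had 105, 115, 126 and 145 RPM with compound E and 449, 336, 383 and 447 RPM with DMSO (log2 fold change -1.76, SE 0.11, edgeR adjusted p = 0.000122), and its scavenging receptor Ackr3 fell too, from between 227 and 309.9 RPM to between 57.7 and 87.1 RPM (log2 fold change -2.05, SE 0.10, edgeR adjusted p = 6.84e-05). Its signalling receptor Cxcr4 had a log2 fold change of -0.34 (SE 0.16, edgeR adjusted p = 0.288), which was not called.

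Other ligands that fell were the parathyroid hormone-related Pthlh (-2.14), the growth factors Fgf20 (-1.63) and Vegfc (-1.52), the activin subunit Inhba (-1.39), the Igf carrier Igfbp3 (-1.36), the Dickkopf family member Dkk3 (-1.25), and the guidance molecules Sema3a (-1.61) and Slit3 (-1.23), all on the log2 scale. Igfbp3 had 1260.1, 1339, 1204 and 1317 RPM with compound E and 3055, 3605, 3112 and 3085 RPM with DMSO, DMSO replicate 2 being the highest. Going the other way, Bmp2, a bone morphogenetic protein, rose from between 42.4 and 70.8 RPM to between 141 and 259 RPM (log2 fold change 1.84, SE 0.21, edgeR adjusted p = 0.00141). Sema3c rose by 1.56 (SE 0.20, edgeR adjusted p = 0.00279) while Sema3a, of the same semaphorin class, fell by 1.61. The Nogo receptor relative Rtn4rl2, which is anchored to the membrane rather than secreted, also rose (1.16).

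Matrix proteins held 14 calls among 160 tested, 5 higher and 9 lower, and proteases and their inhibitors held 6 among 97, 2 higher and 4 lower. Adamts15, a metalloprotease that cuts aggrecan-type proteoglycans, had 191, 262, 324 and 217 RPM with compound E and 14.6, 44.5, 60.3 and 19.8 RPM with DMSO, the largest rise of the secreted class (log2 fold change 2.98, SE 0.23, edgeR adjusted p = 0.000246). Matn1, a cartilage matrilin, rose from between 3.28 and 9.86 RPM to between 21.7 and 50.5 RPM (log2 fold change 2.59, SE 0.26, edgeR adjusted p = 0.000905). Col13a1 and Col23a1 are both transmembrane collagens, and they moved in opposite directions. Col13a1 had 49.9, 53.5, 68.4 and 57.4 RPM with compound E and 7.34, 8.56, 11.6 and 6.21 RPM with DMSO (log2 fold change 2.75, SE 0.14, edgeR adjusted p = 6.84e-05), whereas Col23a1 fell from between 6.09 and 18.0 RPM to between 1.55 and 2.68 RPM (log2 fold change -2.41, SE 0.24, edgeR adjusted p = 0.000821). Otoa, the gene of otoancorin, a protein that attaches the tectorial membrane, rose by 1.08 (SE 0.12, edgeR adjusted p = 0.00120). The calcium-binding Smoc2 rose by 1.61 (SE 0.25, edgeR adjusted p = 0.00637), a call that was lost without replicate 1, 2 or 3.

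Among the matrix genes that fell were Egfl6, an EGF-repeat protein of basement membranes, at 25.2, 42.8, 31.1 and 20.5 RPM with compound E and 176, 221, 170.3 and 198 RPM with DMSO (log2 fold change -2.76, SE 0.16, edgeR adjusted p = 7.82e-05), the laminin chain Lama1 (-2.09), the fibrillin Fbn1 (-2.08) and the proteoglycan Podn (-2.03). Has2, an enzyme that makes hyaluronan, fell by 3.37 on the log2 scale (SE 0.30, edgeR adjusted p = 0.000463). The serine protease Prss23 had 491, 586, 356 and 484 RPM with compound E and 3082, 2697, 2411 and 2656 RPM with DMSO, and its 4 pairs fell by log2 ratios of 2.24 to 2.82 (log2 fold change -2.56, SE 0.12, edgeR adjusted p = 6.84e-05). The plasminogen activator Plat, the proprotein convertase Pcsk6 and the procollagen protease Adamts3 were 2.06-fold, 2.22-fold and 3.29-fold lower.

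The Notch ligands and receptors themselves moved both ways: of 13 genes tested, 3 were called higher and 2 lower. Dll1, a Notch ligand, had 85.0, 21.0, 44.0 and 78.7 RPM with compound E and 21.2, 3.38, 7.81 and 13.9 RPM with DMSO (log2 fold change 2.36, SE 0.13, edgeR adjusted p = 7.82e-05). Dll3, a relative that stays inside the cell, had 54.9, 16.2, 50.0 and 57.0 RPM with compound E and 15.1, 3.03, 4.03 and 16.9 RPM with DMSO (log2 fold change 2.34, SE 0.29, edgeR adjusted p = 0.00237), and Jag2 rose by 1.16 (SE 0.13, edgeR adjusted p = 0.00136). In each of these 3 the treatments overlapped, with replicate 2 lowest in both, and all 4 pairs rose. Dll1, Dll3 and Jag2 were not called without the block (edgeR adjusted p of 0.0453, 0.0720 and 0.144), nor were Jag1 and Notch3 (0.0165 and 0.0430). Jag1, the ligand carried by SCs, had 793, 970.0, 863 and 891 RPM with compound E and 1233, 2839, 2055 and 2659 RPM with DMSO (log2 fold change -1.29, SE 0.16, edgeR adjusted p = 0.00275) and the receptor Notch3 59.3, 92.7, 94.7 and 94.9 RPM with compound E and 100.1, 229, 237 and 271 RPM with DMSO (log2 fold change -1.27, SE 0.13, edgeR adjusted p = 0.00100), with separate groups. Notch1 had a log2 fold change of -0.96 (SE 0.15, edgeR adjusted p = 0.00606), under the 2-fold limit, and Dll4 and Notch2 were at -0.03 and 0.09 (edgeR adjusted p of 0.973 and 0.869). Of 6 subunit genes of γ-secretase, looked at after the values were seen, 1 was called. Psen2, a catalytic subunit of γ-secretase, had 14.5, 17.1, 14.1 and 12.1 RPM with compound E and 36.1, 34.2, 23.6 and 33.8 RPM with DMSO (log2 fold change -1.17, SE 0.14, edgeR adjusted p = 0.00223), while 5 other subunit genes, not called, ranged from -0.16 to 0.28.

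G protein-coupled receptors held 15 calls among 145 tested (10.3%), 3 higher and 12 lower. The largest fall was in Cysltr2, the receptor CysLT2 for cysteinyl leukotrienes, on chr14:73025603-73049114. Cysltr2 had 0.113, 0.824, 0.379 and 0.189 RPM with compound E and 2.88, 17.7, 6.92 and 18.0 RPM with DMSO, so that it was under 1 RPM in each compound E library (log2 fold change -4.93, SE 0.38, edgeR adjusted p = 0.000246). P2ry6, a receptor for the nucleotide UDP, went from between 12.9 and 20.6 RPM to between 0.855 and 1.60 RPM, with pair ratios of -3.89 to -3.49 (log2 fold change -3.85, SE 0.17, edgeR adjusted p = 5.34e-05). The glutamate receptor Grm7 fell by 3.68 (SE 0.37, edgeR adjusted p = 0.000915) and the endothelin receptor Ednrb by 2.49 (SE 0.21, edgeR adjusted p = 0.000351). Crhr1, a receptor for corticotropin-releasing hormone, was called lower with overlapping groups (-1.75). The somatostatin receptor Sstr2 (1.75), the adrenergic receptor Adra2a (1.65) and the cholecystokinin receptor Cckbr (1.59) rose. The libraries of Sstr2 and Cckbr overlapped between treatments. None of the 3 was called without the block (edgeR adjusted p of 0.217, 0.0153 and 0.161). Cckbr was not called whichever replicate was left out, and Sstr2 and Adra2a were not called without replicate 2, 3 or 4.

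Of the 10 Frizzled genes, the receptors for Wnt, all were tested, and 3 were called, all lower. Fzd9 had 134, 156, 132 and 119.8 RPM with compound E and 638, 746, 677 and 716 RPM with DMSO, 5.28-fold lower (log2 fold change -2.40, SE 0.10, edgeR adjusted p = 5.34e-05). Fzd1 and Fzd4 were 2.22-fold and 2.09-fold lower (edgeR adjusted p of 0.000224 and 0.000797). The other 7 ranged from -0.38 for Fzd2 to 0.76 for Fzd7, whose compound E libraries, at 343 to 367 RPM, all lay above the DMSO libraries, at 140.2 to 247 RPM, without reaching the adjusted p limit (edgeR adjusted p = 0.0136). Daam2, a formin of the Wnt pathway, fell by 2.29 (SE 0.12, edgeR adjusted p = 7.82e-05). The Frizzled group and Daam2 were chosen after their values were seen.

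Ion channels held 12 calls among 221 tested, 2 higher and 10 lower. Kcnk10, a two-pore potassium channel, had 0.225, 0.876, 0.612 and 0.0316 RPM with compound E and 1.10, 17.7, 9.24 and 6.08 RPM with DMSO, a fall whose size differed between pairs, with log2 ratios from -6.07 to -2.02 (log2 fold change -4.18, SE 0.54, edgeR adjusted p = 0.00286), and it was not called without replicate 2 or 3. Asic2, an acid-sensing sodium channel, had 5.29, 8.19, 6.41 and 5.78 RPM with compound E and 63.4, 60.6, 55.3 and 71.6 RPM with DMSO, a fall of similar size in each pair (log2 fold change -3.34, SE 0.15, edgeR adjusted p = 5.34e-05). Trpa1 and Kcng4 fell by more than 4 on the log2 scale, but from DMSO levels of at most 3.52 and 1.08 RPM. Neither was called whichever replicate was left out. Aqp4, the water channel of glia and SCs, was called with overlapping groups, at 12.5, 86.5, 103 and 47.9 RPM with compound E and 93.1, 169, 264 and 215 RPM with DMSO (log2 fold change -1.87, SE 0.28, edgeR adjusted p = 0.00629). The nucleotide-gated channel P2rx3 rose by 1.81 (SE 0.26, edgeR adjusted p = 0.00502) and the potassium channel Kcnh6 by 1.11 (SE 0.10, edgeR adjusted p = 0.000593).

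Transporters held 14 calls among 306 tested, 4 higher and 10 lower. Slc2a9, a urate transporter, went from between 8.70 and 11.0 RPM to between 0.641 and 1.33 RPM (log2 fold change -3.59, SE 0.28, edgeR adjusted p = 0.000270). A pair of relatives of the NIPA magnesium transporter family went in opposite directions: Nipal4 rose from between 1.05 and 2.19 RPM to between 7.52 and 22.2 RPM (log2 fold change 2.89, SE 0.29, edgeR adjusted p = 0.000877), and Nipal1 fell from between 5.46 and 11.8 RPM to between 0.915 and 1.75 RPM (log2 fold change -2.82, SE 0.29, edgeR adjusted p = 0.000919). The neutral amino acid transporter Slc1a4 had 74.7, 90.3, 84.5 and 107 RPM with compound E and 229.9, 259, 249 and 292 RPM with DMSO, among the most even falls of all (log2 fold change -1.58, SE 0.08, edgeR adjusted p = 7.82e-05). The lysophospholipid transporter Mfsd2a (-2.14) and the amino acid transporter Slc6a14 (-2.05) also fell, and the riboflavin transporter Slc52a3 (1.55) rose with overlapping groups.

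Receptors for growth factors, cytokines and guidance molecules held 6 calls among 183 tested, all lower. This share of 3.28% is near the 2.2% of all genes and is not a result about the family. Pdgfrb, a receptor for platelet-derived growth factor, fell most, with 23.9, 56.0, 36.8 and 37.0 RPM with compound E and 162, 243, 208 and 291 RPM with DMSO (log2 fold change -2.63, SE 0.15, edgeR adjusted p = 7.82e-05). Kit, Erbb4, Bambi and Ramp3 fell by 1.00 to 1.13. Kit, Erbb4 and Ramp3 were not called without the block (edgeR adjusted p of 0.0282, 0.0993 and 0.0135). Kit was also not called without replicate 2, 3 or 4, Erbb4 not without replicate 1 or 2, and Bambi not without replicate 3. Adhesion proteins and membrane-bound ligands held 29 calls among 399 tested, 9 higher and 20 lower. The heparan sulfate proteoglycans Gpc1 (-1.37), Gpc6 (-1.03) and Sdc1 (-1.44), the tight junction protein Cldn1 (-1.60), the desmosomal cadherins Dsc2 (-1.56) and Dsg3 (-2.07) and the glial phosphatase Ptprz1 (-1.56) fell. Tmprss2, a membrane serine protease, rose from between 33.0 and 56.0 RPM to between 94.5 and 138 RPM (log2 fold change 1.44, SE 0.10, edgeR adjusted p = 0.000129). The metalloprotease Adam19 (2.01), the Ly6-family protein Ly6g6c (2.63), the Delta-like protein Dlk2 (1.68) and the growth factor precursor Egf (1.24) rose. Ly6g6c was not called without replicates 2, 3 or 4, and Adam19 not without 1, 3 or 4. Dsg3 was not called whichever replicate was left out. Ly6g6c shares exons with G6b on the other strand, which was itself called higher (2.48).

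**Figure D3:**
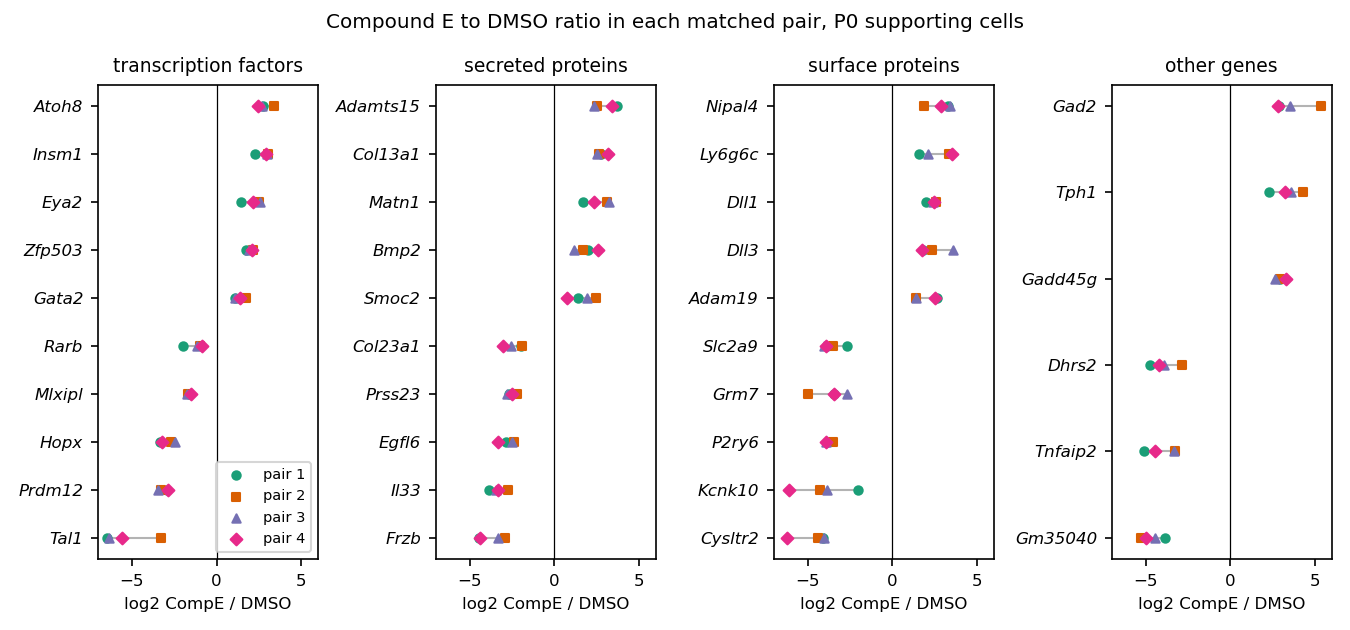
Log2 ratio of compound E to DMSO in each of the 4 matched pairs (horizontal axis) for the genes with the largest changes in 4 classes of protein, with a symbol for each pair and a grey line from the lowest to the highest pair. Every symbol of a gene lies on 1 side of 0 because only genes with 1 sign in all 4 pairs were drawn. Prdm12, P2ry6 and Gadd45g form tight clusters, and Tal1, Kcnk10 and Gad2 spread over more than 2 log2 units.

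Outside these classes the 3 largest rises that passed the 5 RPM limit of the naming rule were in Gad2, Tph1 and Gadd45g. Gad2, which makes GABA, had 13.4, 3.45, 10.4 and 12.9 RPM with compound E and 1.74, 0.0250, 0.826 and 1.71 RPM with DMSO (log2 fold change 3.47, SE 0.43, edgeR adjusted p = 0.00234), while its paralog Gad1 was at -0.28 (SE 0.19, edgeR adjusted p = 0.483), and Gad2 was not called without replicate 3 or 4. Tph1, which begins serotonin synthesis, had 25.4, 6.18, 8.57 and 13.0 RPM with compound E and 4.99, 0.250, 0.635 and 1.31 RPM with DMSO (log2 fold change 3.31, SE 0.34, edgeR adjusted p = 0.000929), and Gch1, which begins the synthesis of the cofactor of tryptophan hydroxylase and nitric oxide synthase, rose by 1.18 (SE 0.17, edgeR adjusted p = 0.00427). Gadd45g, a growth arrest gene on chr13:51846678-51848468, had 231, 42.9, 69.4 and 93.7 RPM with compound E and 29.8, 5.38, 10.8 and 9.33 RPM with DMSO, with pair ratios between 2.62 and 3.29 (log2 fold change 2.95, SE 0.13, edgeR adjusted p = 5.34e-05). Scd1, the stearoyl-CoA desaturase, was the only called gene of 16 tested in fatty acid synthesis, with 529, 494, 545 and 470.1 RPM with compound E and 78.4, 82.6, 144 and 64.6 RPM with DMSO (log2 fold change 2.49, SE 0.17, edgeR adjusted p = 0.000129). The ectoenzymes Enpp1 and Nt5e, which break down extracellular nucleotides, rose by 2.28 and 1.45 (edgeR adjusted p of 5.34e-05 and 0.00120). The largest falls that passed the level limit of the naming rule were in the predicted gene Gm35040 (-4.91), the TNF-induced Tnfaip2 (-4.10) and the reductase Dhrs2 (-4.08). Tnfaip2 had 1.10, 1.85, 1.63 and 1.14 RPM with compound E and 38.2, 17.8, 16.4 and 25.9 RPM with DMSO, and Gm40578, with which it shares exons on the other strand, was also called lower (-1.96).

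Bases just before the transcription start are printed for 4 called genes, Hes5 and Sp5, which fell, and Matn1 and Gadd45g, which rose. Binding to these bases was not tested. The sequences are those of RefSeq on GRCm38.p6, the 250 bases before the start on the gene's strand, with GTGGGAA, a form of the RBPJ site, in capitals for the first 2 and CAGCTG, an E-box of the kind bHLH activators bind, in capitals for the last 2, on either strand. The genes were picked because they hold the letters.
Hes5, chr4:154960673-154960922, plus strand: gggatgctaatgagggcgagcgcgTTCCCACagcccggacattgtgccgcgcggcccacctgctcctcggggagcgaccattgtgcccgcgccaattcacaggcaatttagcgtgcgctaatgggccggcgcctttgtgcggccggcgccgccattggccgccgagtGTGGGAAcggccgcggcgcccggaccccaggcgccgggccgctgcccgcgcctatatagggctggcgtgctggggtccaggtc
Sp5, chr2:70474673-70474922, plus strand: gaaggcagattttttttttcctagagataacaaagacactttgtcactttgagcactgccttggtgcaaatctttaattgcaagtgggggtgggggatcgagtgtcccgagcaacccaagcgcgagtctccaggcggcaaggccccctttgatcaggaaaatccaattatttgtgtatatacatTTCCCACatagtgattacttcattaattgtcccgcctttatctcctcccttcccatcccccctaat
Matn1, chr4:130944135-130944384, plus strand: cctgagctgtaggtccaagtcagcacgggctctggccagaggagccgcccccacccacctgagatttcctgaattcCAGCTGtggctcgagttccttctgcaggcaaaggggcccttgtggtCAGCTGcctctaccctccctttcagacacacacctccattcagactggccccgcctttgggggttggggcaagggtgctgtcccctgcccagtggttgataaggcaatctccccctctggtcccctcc
Gadd45g, chr13:51846425-51846674, plus strand: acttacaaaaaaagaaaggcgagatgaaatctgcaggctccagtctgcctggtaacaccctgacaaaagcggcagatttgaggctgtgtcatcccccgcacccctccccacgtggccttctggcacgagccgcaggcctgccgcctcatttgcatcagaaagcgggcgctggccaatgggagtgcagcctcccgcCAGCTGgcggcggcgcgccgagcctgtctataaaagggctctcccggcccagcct
In Hes5, a well-known RBPJ target, the match begins 226 and 83 bases before the start, and in Sp5 66 bases. CAGCTG begins 174 and 128 bases before the start of Matn1 and 55 bases before that of Gadd45g. Over all genes, GTGGGAA was in 6.93% of 231 promoters of genes called lower, 6.32% of 95 promoters of genes called higher, 5.64% of 15101 promoters of genes tested and 5.42% of all 32851 promoters of the same length. The shorter core TGGGAA, which GTGGGAA contains, was in 25.1%, 15.8%, 20.8% and 21.6% of the same sets, and CAGCTG in 15.6%, 24.2%, 12.6% and 13.0%. Promoters were found for 173 of the 241 genes called lower and 76 of the 109 called higher. A match is a description of these letters and not a binding site.

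Signalling pathways were described by lists of genes, to be read against the 2.2% of all genes that were called. Of 27 Wnt ligands, inhibitors and targets tested, 3 (11.1%) were called, all lower (Frzb, Dkk3 and Sp5), with a median log2 fold change of -0.28 against 0.01 over all genes. Both Frzb and Dkk3 are secreted inhibitors or relatives of inhibitors, while Sp5 is a target. Of 25 genes of BMP, TGF-β and activin signalling, Bmp2 rose and Inhba, Bambi and Id3 fell (16% called, median -0.28), Bambi being a decoy receptor and Id3 a target of BMP. Id3 was not called without the block (edgeR adjusted p = 0.125) or without replicate 2, 3 or 4. Bambi was not called without replicate 3 (edgeR adjusted p = 0.0133). Of 20 FGF and MAPK feedback genes, Fgf20 was called (5.0%, median 0.05), and of 15 retinoic acid genes, Rarb was called (6.67%, median -0.34), as was Erbb4 of 16 ErbB and neurotrophin genes and Tnfaip2 of 23 NF-κB and cytokine response genes. A single call in a list of this size is near the share over all genes and is not a result about the list.

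Purinergic, eicosanoid and nitric oxide genes held the largest share of calls among the signalling lists other than Notch, 6 of 20 tested (30.0%, against 2.2% of all genes), 1 higher and 5 lower, with a median of -0.48. P2rx3 rose, and besides Cysltr2 and P2ry6 the falls were in the nitric oxide synthase Nos1 and in both subunits of its receptor, the soluble guanylate cyclase. Nos1 had 1.42, 5.10, 3.59 and 1.70 RPM with compound E and 17.6, 53.9, 43.8 and 57.8 RPM with DMSO (log2 fold change -3.94, SE 0.27, edgeR adjusted p = 0.000150). Gucy1b3 fell by 1.69 (SE 0.11, edgeR adjusted p = 0.000122) and Gucy1a3 by 1.14 (SE 0.12, edgeR adjusted p = 0.00119). The cGMP-dependent kinase Prkg1, not on the list and picked after its values were seen, had 6.77, 9.01, 6.56 and 5.93 RPM with compound E and 11.8, 27.9, 10.4 and 14.5 RPM with DMSO (log2 fold change -1.14, SE 0.19, edgeR adjusted p = 0.00962). Prkg1 was not called whichever replicate was left out (edgeR adjusted p of 0.0184, 0.0294, 0.0273 and 0.0570 without replicates 1 to 4) or without the block (0.0737). Alox5, which makes leukotrienes, was at -2.57 (SE 0.46) and missed the limit (edgeR adjusted p = 0.0134). The list was drawn up with earlier results that named Cysltr2, P2ry6 and Nos1 known, so its count is not independent evidence.

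The lists of cell state and metabolism held 3 calls among 133 genes tested (2.26%), about the 2.2% over all genes. Among 22 immediate-early, 19 heat shock and unfolded protein, 25 cell cycle, 20 cholesterol synthesis, 17 Hippo and 7 Hedgehog genes, 110 in all, 0 were called by edgeR, with 25 at an unadjusted p under 0.05, 6 at an adjusted p of at most 0.05 with no fold threshold and 1 called by DESeq2 (Gli2). The median log2 fold change of the immediate-early genes was 0.43 and their values ranged from -0.95 to 1.45. Of 22 glycolysis and hypoxia genes, Eno1 was called (-1.11, edgeR adjusted p = 0.00554). Of 9 CDK inhibitors and Gadd45 genes, Gadd45g was called, with Cdkn1a at 0.78 (SE 0.14, edgeR adjusted p = 0.0128) and Cdkn1b at -0.71 (SE 0.10, edgeR adjusted p = 0.00349).

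Lists of genes of the tissue were described in the same way, with 0.684% of all genes called higher, 1.51% called lower and 14.2% higher in all 4 pairs. Of 19 early HC genes, 6 rose and 0 fell (Insm1, Dll1, Dll3, Srrm4, Jag2 and Pou4f3, median 0.72), and 11 were higher in all 4 pairs. None of these 6 was called without the block (edgeR adjusted p of 0.0361 to 0.482). Srrm4 and Pou4f3 were also not called whichever replicate was left out. Of 20 late HC and stereocilia genes, 0 were called by edgeR or DESeq2, with 2 at an unadjusted p under 0.05, and the median was 0.13. The summed level of HC markers was also higher in each pair, and the part of HCs among the sorted cells in these values was not tested. Of 15 glial genes of SCs, 3 fell (median -0.47), namely Fabp7, Aqp4 and Ptprz1. Fabp7, a fatty acid carrier of glia and inner phalangeal cells, had 12.4, 24.8, 20.9 and 19.2 RPM with compound E and 107, 339, 154 and 178 RPM with DMSO (log2 fold change -3.28, SE 0.15, edgeR adjusted p = 5.34e-05). Of 11 inner phalangeal and border cell genes, Fabp7, Ednrb and Igfbp3 fell, and of 17 pillar and Deiters' cell genes, Hes5, Hey2 and Fam159b did. S100b, a calcium-binding protein of glia and SCs, was at 0.80 (SE 0.15, edgeR adjusted p = 0.0174).

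The 4 pairs agreed on direction for every called gene. All 350 had 1 sign in all 4 pairs, against 28.2% of all genes tested, and 221 were at least 2-fold in each pair, 57 of them higher and 164 lower. The calls were made on the same pairs, so this is a description. In 34 called genes the libraries of both treatments overlapped, 23 of 109 among those higher and 11 of 241 among those lower. Over all genes tested, 9.88% had no overlap. The genes with the narrowest range over pairs, among called genes of at least 5 RPM, were Ralgds, Lin7a, Slc1a4, Gatsl3 and Hey2. Ralgds, which activates Ral GTPases, rose by log2 ratios of 1.02 to 1.12, and Lin7a, a scaffold of cell polarity, fell by 0.94 to 1.05. The widest ranges were those of Hes5, Kcnk10, Tal1, 8430408G22Rik and Gad2. Hes5 fell by 8.51, 3.76, 5.42 and 6.67 in pairs 1 to 4, pair 2 being the smallest fall for Hes5, Tal1 and Frzb alike.

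Among the called genes, which were picked by a test on these same pairs, the median size of the response was similar between pairs. The median log2 ratio of the genes called higher was 1.43, 1.58, 1.39 and 1.49 in pairs 1 to 4, and that of the genes called lower was -1.70, -1.69, -1.49 and -1.78. Pair 3 gave the smallest response in 132 of the 350 genes, against 74, 89 and 55 for pairs 1, 2 and 4, and the largest in 45, against 111, 88 and 106. The median range over pairs was 0.785 for genes called higher and 0.792 for those called lower, and 0.669 for all genes. Over all genes tested the ratios of 2 pairs correlated by 0.282 (pairs 1 and 2) to 0.491 (pairs 3 and 4, which share a batch), a description over genes of paired libraries. Leaving out both libraries of 1 pair left 212 to 288 calls, fewest without replicate 3 and with 216 without replicate 4. Of the 350 genes, 163 were called without each of the 4 pairs in turn, 44 of them higher.

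**Figure D4:**
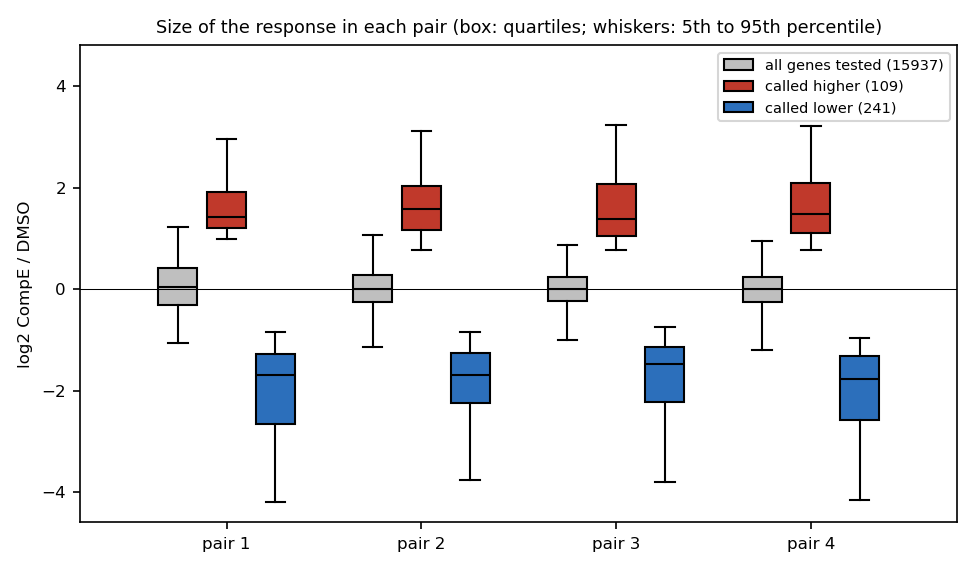
Log2 ratio of compound E to DMSO (vertical axis) in each of the 4 pairs for all genes tested, the genes called higher and the genes called lower, with quartiles as boxes and the 5th and 95th percentiles as whiskers. The boxes of each kind stand at similar heights in all 4 pairs, with pair 3 nearest to 0 for the genes called lower.

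The P0 response was set beside that of P6 SCs by testing the interaction of age and treatment over all 14 libraries with pairs as blocks. Of 17090 genes, 16 differed (0.0936%), of which 15 were called at P0, the other being Ahr, the aryl hydrocarbon receptor (-0.92 at P0). In each of the 15 the value at P6 was nearer to 0 than at P0. These genes were picked by a call at P0 and a difference between ages, so this is a description. Frzb, with 11.6, 64.1, 33.1 and 22.1 RPM with compound E and 254, 479.8, 318 and 453 RPM with DMSO at P0, was at 64.2, 232 and 138 RPM with compound E and 96.7, 138 and 126 RPM with DMSO at P6, and its log2 fold change was 0.11 there against -3.78 at P0 (difference 3.90, SE 0.43, edgeR adjusted p = 0.00844). Col13a1 was at -0.35 against 2.75 (difference -3.08, SE 0.23, edgeR adjusted p = 0.00270), Cxcl12 at 0.15 against -1.76 (difference 1.94, SE 0.19, edgeR adjusted p = 0.00505) and Gadd45g at -0.90 against 2.95 (difference -3.84, SE 0.35, edgeR adjusted p = 0.00454). The levels also differed by age without treatment: with DMSO, Cxcl12 was 336 to 449 RPM at P0 and 6.37 to 13.3 RPM at P6, while Tmprss2 was 33.0 to 56.0 RPM at P0 and 184 to 221 RPM at P6. The remaining differences were in Hes6, Zfp503, Otoa, Tmprss2, Gpc1, Hhatl, Padi2, Mfi2, Dclk1, Rab3b and Pdzk1ip1. The count fell to 0 with edgeR without the block, where 811 genes had an unadjusted p under 0.05, and without any 1 of P0 pairs 1 and 2 and P6 pairs 2 and 3. It was 2 without P0 pair 4, 5 without P6 pair 1, 8 without P0 pair 3 and 183 with DESeq2. Age and batch cannot be told apart, since no batch held both ages.

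**Figure D5:**
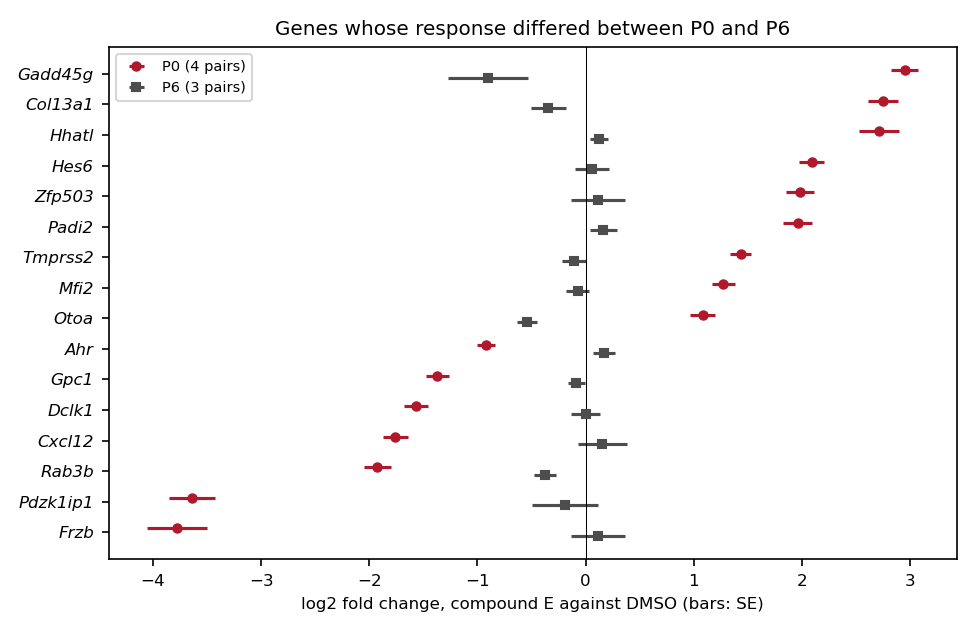
Log2 fold change of compound E against DMSO (horizontal axis) at P0 (circles, 4 pairs) and P6 (squares, 3 pairs) for the 16 genes whose response differed between ages, with standard errors as bars. The P0 values reach from -3.78 for Frzb to 2.95 for Gadd45g, and the P6 values lie between -0.90 and 0.17.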

How the data were processed

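Sorted Lfng-EGFP+ SCs were sequenced after full-length cDNA amplification without molecular identifiers. Reads were trimmed (Trim Galore 0.6.0, cutadapt 1.15) and mapped with STAR to mm10 according to the submitters' processing notes. The notes and the paper's methods name different STAR releases. The deposited values are raw counts per gene symbol, neither normalized nor filtered by the authors. The gene annotation and strand setting are not given in the sources used here.

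Sample groups, replicate numbers and batches came from the labels. RPM was computed here as count over library total. edgeR 4.0.16 in R 4.3.3 was run with TMM, filterByExpr (minimum count 10), glmQLFit and glmQLFTest with treatment and replicate number as terms. SEs were derived from the fold change and F. Calls needed an adjusted p (Benjamini-Hochberg) no larger than 0.01 and a 2-fold change, as in the study. Pair ratios used TMM-scaled counts with a prior count of 2. Replicate 1 is batch 1, replicate 2 batch 2, and replicates 3 and 4 batch 3. Deviations from the group means correlated by 0.162 to 0.500 between libraries of the same number, each correlating best with its own number, so numbers were treated as pairs. The common biological coefficient of variation was 18.8% with the block and 27.2% without. No replicate libraries agreed within sampling noise, and labels do not say whether they came from separate animals. With the block, p-values therefore measure the spread of the treatment difference between these pairs of libraries.

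Classes were made from symbol patterns. Members, classes and lists were chosen with earlier results of these data known. Genes named are, in each of 3 classes, the 5 largest rises and falls, and among other genes the 3 largest, of called genes whose higher group averaged 5 RPM or more and whose 4 pairs shared a sign, without Hes1, Hes5, Hey1, Hey2, Heyl, Lfng, Nrarp, Atoh1 and Hes6, plus list members, the 5 narrowest and widest pair ranges, and genes that differed between ages. All other genes were picked after their values were seen. Positions are from GENCODE vM21 (GRCm38). On counts simulated from these libraries, edgeR recovered 83.6%, 91.0% and 90.9% of genes changed by log2 1.5, 2 and 3 in the P0 comparison over 15937 genes, with 2 unchanged genes called. DESeq2 1.42.0, the batch as a block, no block, other thresholds, no filter and all 14 libraries in one fit were alternatives.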

Additional observations from a re-analysis of the deposited data

Results flagged for a closer look

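In 11 of 306 groups of 4 P0 libraries (3.6%), 1 library stood far from the 3 others of its group, a smaller share than the 1 group in 20 that chance gives, so the cases are listed as values only. Compound E replicate 2 was highest for Hes5 (65.4 RPM, the others at most 9.36), Tal1 (6.59 RPM, the others at most 0.473) and Dhrs2 (1.03 RPM, the others at most 0.350), all genes that fell. Compound E replicate 1 was highest for Xist (36.7 RPM), the Y-linked Eif2s3y (92.9 RPM) and for Egr2 (385 RPM, the others 85.3 to 126), and lowest for Notch3 (59.3 RPM, the others 92.7 to 94.9) and Fzd7 (342 RPM, the others 363 to 367). Compound E replicate 3 was highest for Vegfc (8.66 RPM), DMSO replicate 1 for Sema3c (8.78 RPM) and DMSO replicate 2 for Igfbp3 (3605 RPM, the others 3055 to 3112).

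The response to compound E differed between ages, by the test of the interaction, in 16 genes. The P6 minus P0 difference in log2 fold change was positive for Frzb (3.90), Pdzk1ip1 (3.45), Cxcl12 (1.94), Dclk1 (1.59), Rab3b (1.56), Gpc1 (1.30) and Ahr (1.10). It was negative for Gadd45g (-3.84), Col13a1 (-3.08), Hhatl (-2.57), Hes6 (-2.02), Zfp503 (-1.86), Padi2 (-1.78), Otoa (-1.61), Tmprss2 (-1.53) and Mfi2 (-1.34). Age and batch cannot be told apart in these values.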

How the results depend on the processing

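Without the replicate block, so without the pairing, 195 genes were called at P0 (38 higher and 157 lower, 19.5% higher against 31.1% with it), 194 of them also called with it, 11 transcription factors, 23 secreted and 37 surface proteins, and 0 genes in the difference between ages. DESeq2 with the block called 530 genes, 32 transcription factors among them, and 183 genes in the difference between ages. An adjusted p of at most 0.05 with no fold threshold called 1195 genes, with 62 transcription factors, 94 secreted and 199 surface proteins, and with the 2-fold limit kept it called 32 transcription factors. Leaving out both libraries of 1 replicate at a time gave 212 to 288 genes (14 to 20 transcription factors, 22 to 29 secreted and 42 to 62 surface proteins) and 0 to 8 genes in the difference between ages. DESeq2 size factors, the batch block, no filter on low counts and all 14 libraries in one fit kept the P0 count within 1.5 times, at 351, 334, 491 and 270. None of the 350 called genes changed sign under these alternatives. Since each of them had 1 sign in every pair, refits of the same libraries could hardly reverse it, so this is a description. Of the 36 genes with the largest changes, 12 were not called without the block (Insm1, Eya2, Tal1, Rarb, Smoc2, Ly6g6c, Dll1, Dll3, Kcnk10, Gad2, Tph1 and Gadd45g). Leaving out replicates 1, 2, 3 and 4 in turn ended the call of 3, 4, 8 and 5 of them: Rarb each time, Smoc2 without 1, 2 or 3, Adam19 without 1, 3 or 4, Ly6g6c without 2, 3 or 4, Kcnk10 without 2 or 3, Tal1 and Gad2 without 3 or 4, and Mlxipl without 3. Of the 132 called genes the text names, 75 were called without each replicate in turn. Of all 350, 34 were not called in any of the 4 fits without a replicate. Among these were Cckbr, Dsg3, Gch1, Gm40578, Kcng4, Pou4f3, Prkg1, Rarb, Srrm4 and Trpa1. The causes were not tested. A prior count of 0.5 left all 350 genes with 1 sign in all pairs. Depth limits genes such as Kcng4, at or under 1.08 RPM in each library.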

Other observations

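Among called genes outside the protein classes, picked after their values were seen, were genes of metabolism. Dgat2, which makes triglycerides, fell by 2.74 on the log2 scale (SE 0.17, edgeR adjusted p = 0.000112). The mitochondrial pyruvate carrier Mpc1 rose by 1.30 (SE 0.18, edgeR adjusted p = 0.00372). Ch25h, which makes 25-hydroxycholesterol, rose by 2.87 (SE 0.41, edgeR adjusted p = 0.00485). The urea cycle enzymes Cps1 and Ass1 fell by 2.55 and 2.27 (edgeR adjusted p of 0.00405 and 0.00364). Trh, the precursor of thyrotropin-releasing hormone, had 9.25, 13.7, 10.7 and 7.83 RPM with compound E and 147, 77.3, 57.0 and 31.2 RPM with DMSO (log2 fold change -2.76, SE 0.30, edgeR adjusted p = 0.00130), with all compound E libraries below all DMSO libraries. Each of these genes moved in 1 direction in all 4 pairs, and Ch25h and Mpc1 share exons with genes of the other strand.

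Of the 327 called genes with a position, 8 lay on the X chromosome (2.45%) and 0 on the Y, against 3.32% on the X for all genes tested. The P0 called genes that were tested at P6 numbered 330, and 272 of them had the same sign there, with median log2 fold changes at P6 of 0.29 for those called higher at P0 and -0.60 for those called lower. At P6 edgeR called 0 of 15322 genes with the block, where 1108 had an unadjusted p under 0.05. The P6 fit had fewer pairs than the P0 fit and a wider spread. Its common biological coefficient of variation was 30.6%, against 18.8% at P0. The count of 0 therefore does not show that P6 SCs had no response. With DESeq2 and the same thresholds, the paper reported genes changed in both directions at P6, fewer than at the younger age.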
